A study of Bos taurus with 15 samples.

Results

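RIGI and DHX58 encode a pair of cytosolic RNA sensors, RIG-I and LGP2. Their mRNA was examined in Japanese Black cows, in the caruncular endometrium, the uterine lining at the sites where the placenta attaches. The 2 genes were chosen by name, out of 7111 gene symbols on the array, with every probe for either gene. This gave 3 of the 15208 probes, namely 2 for RIGI (A_73_112638 and ABR9555) and 1 for DHX58 (A_73_100019). There were 4 groups, without any treatment: non-pregnant cows of day 15 of the estrous cycle (NP15, n = 4), pregnant cows of day 15 (P15, n = 3), non-pregnant cows of day 18 (NP18, n = 4) and pregnant cows of day 18 (P18, n = 4). The day of insemination counted as day 1, and pregnancy was judged by eye from the presence of fetal trophoblast in the opened uterus. Each array, a custom one-color Agilent design, was taken as 1 cow. The ages of the cows are not given in the sources used here. The tissue was taken whole, so it can hold epithelium, stroma, vessels and immune cells, and in such bulk samples fewer cells of a type and less RNA per cell cannot be told apart.

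RIG-I binds RNA with exposed triphosphate or short double-stranded ends, of the kind that many viruses leave in the cytosol. Binding frees its caspase recruitment domains, which engage the adaptor MAVS on mitochondria, and the kinases TBK1 and IKKε then activate IRF3 and the genes for type I interferon. LGP2 has the same helicase core and RNA-binding end but no caspase recruitment domain, and it is known to tune signaling by RIG-I and by the related sensor MDA5, the product of IFIH1. The genes for these 3 sensors are themselves induced by interferon in many cell types. In ruminants, the trophoblast secretes interferon tau, a type I interferon that acts on the endometrium before the placenta attaches.

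The 3 probes are 60-base oligonucleotides, and the stretches printed here show where the 2 RIGI probes overlap and where the DHX58 probe holds a motif found near transcript ends. The 2 RIGI probes share 53 bases and are offset by 7. All are written 5′ to 3′, with bases 1 to 30 of ABR9555 and bases 31 to 60 of the other 2 probes. In the RIGI probes, capitals mark bases that both probes share, and in the DHX58 probe they mark the motif AATAAA, the common signal for addition of the poly(A) tail, as a match of letters and not as a site shown to be used.
RIGI ABR9555: atatccaTAGGCGTAAGAGTCACATATACT
RIGI A_73_112638: TCTGTGTAGCAACATGTGGCATCtattatt
DHX58 A_73_100019: cataaattaaaAATAAAgaagtggaaaacg
The 2 RIGI probes therefore read nearly the same piece of the transcript and are not independent measurements of the gene. The motif AATAAA, searched on the probe strand, was present in 11.3% of the 15208 probes. The GC content was 36.7% for A_73_112638, 40.0% for ABR9555 and 31.7% for the DHX58 probe, against a median of 43.3% over all probes. A_73_112638 was named through its gene identifier and the DHX58 probe through its accession, whereas ABR9555 was named from the words of its description alone. Between DHX58 and either RIGI probe, the longest run of identical bases was 6.

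The median processed signal of an array was from 315 to 838, and 65.6 to 88.3% of probes were well above background. These differed by group. The array median was 790 to 838 in NP18 and 407 to 563 in P18, with 73.1 to 76.8% and 65.6 to 73.9% of probes above background. All 3 member probes were well above background in all 15 arrays, and none was saturated or flagged. The weakest array was 36.0 times the lowest signal well above background of its array for A_73_112638, 28.5 times for ABR9555 and 11.8 times for DHX58. Values below are processed signals divided by the median of the array, and tests were made on their log2. This division makes ratios of P18 over NP18 larger than in the undivided signal. Undivided, A_73_112638 was from 2082 to 3701 in NP18 and from 27905 to 37947 in P18. The 15 arrays lay on 9 slides and were scanned on 6 days. No slide or scan day held 2 groups. NP15 was scanned on 3 days and each of the other groups on 1, so for P15, NP18 and P18 the scan day and the group cannot be told apart. Of 14 genes fixed as endometrial markers, 12 had a probe, and in each group 11 or 12 of these passed background in all its arrays, whereas ESR1, the estrogen receptor, did so in no P18 array.

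On day 18, both genes were many-fold higher in the pregnant group than in the non-pregnant group. RIGI rose 18.5-fold by one probe and 17.7-fold by the other, and DHX58 rose 13-fold. Every pregnant array was above every non-pregnant array for all 3 probes. The share of all probes separated in this way is not given here. On day 18, 3177 of all 13164 probes had an unadjusted limma p below 0.05.

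For RIGI (A_73_112638), the signal of NP18 replicates 1 to 4 was 4.08, 4.69, 3.21 and 2.57 times the array median, and that of P18 replicates 1 to 4 was 63.0, 67.7, 87.2 and 49.5. The lowest pregnant array was thus far above the highest non-pregnant array. The means were 3.64 ± 0.933 and 66.9 ± 15.6 (SD, n = 4 each). The log2 fold change was 4.21 with an SE of 0.45, the 95% confidence interval of the fold was 9.51 to 35.9, and limma's adjusted p was 7.47e-05.

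With the overlapping RIGI probe ABR9555, the signal was 3.47, 3.97, 3.14 and 2.11 in NP18 and 52.3, 56.7, 71.0 and 42.2 in P18, in the order of the replicates. The arrays ranked in the same order as with the first probe in both groups. This was a log2 fold change of 4.14 with an SE of 0.46, the interval of the fold was 8.94 to 34.9, and limma's adjusted p was 0.000101.

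For DHX58, the signal of NP18 replicates 1 to 4 was 2.13, 2.20, 1.97 and 0.782, and that of P18 replicates 1 to 4 was 19.6, 19.8, 32.1 and 16.6. Replicate 4 of NP18 lay below its mates, which were close together, and replicate 3 of P18 was the highest, as it was for RIGI. The means were 1.77 ± 0.666 and 22.0 ± 6.85 (SD, n = 4 each). DHX58 thus had a log2 fold change of 3.70 with an SE of 0.36, the interval of the fold was 7.62 to 22.2, and limma's adjusted p was 3.52e-05.

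An exact two-sided permutation test gave p = 0.0286 for each of the 3 probes, which is the smallest value that 4 arrays against 4 allow. Among the 13164 probes tested, limma called 3.65% higher in the pregnant group on day 18, where a call needs both an adjusted p under 0.05 and more than a 2-fold change. By p, the DHX58 probe was 18th and the RIGI probes were 26th and 32nd of all probes. When scan days entered as random blocks, the 3 calls held, with adjusted p of 0.0278 for A_73_112638, 0.0311 for ABR9555 and 0.0202 for DHX58. The spread between scan days in this fit comes from NP15, the one group scanned on several days. Over the alternatives with adjustment, the adjusted p was from 2.16e-05 to 0.0278, from 2.93e-05 to 0.0311 and from 8.69e-06 to 0.0217, in the same order. Without any 1 of the 15 arrays, the 3 probes were still called.

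**Figure D1:**
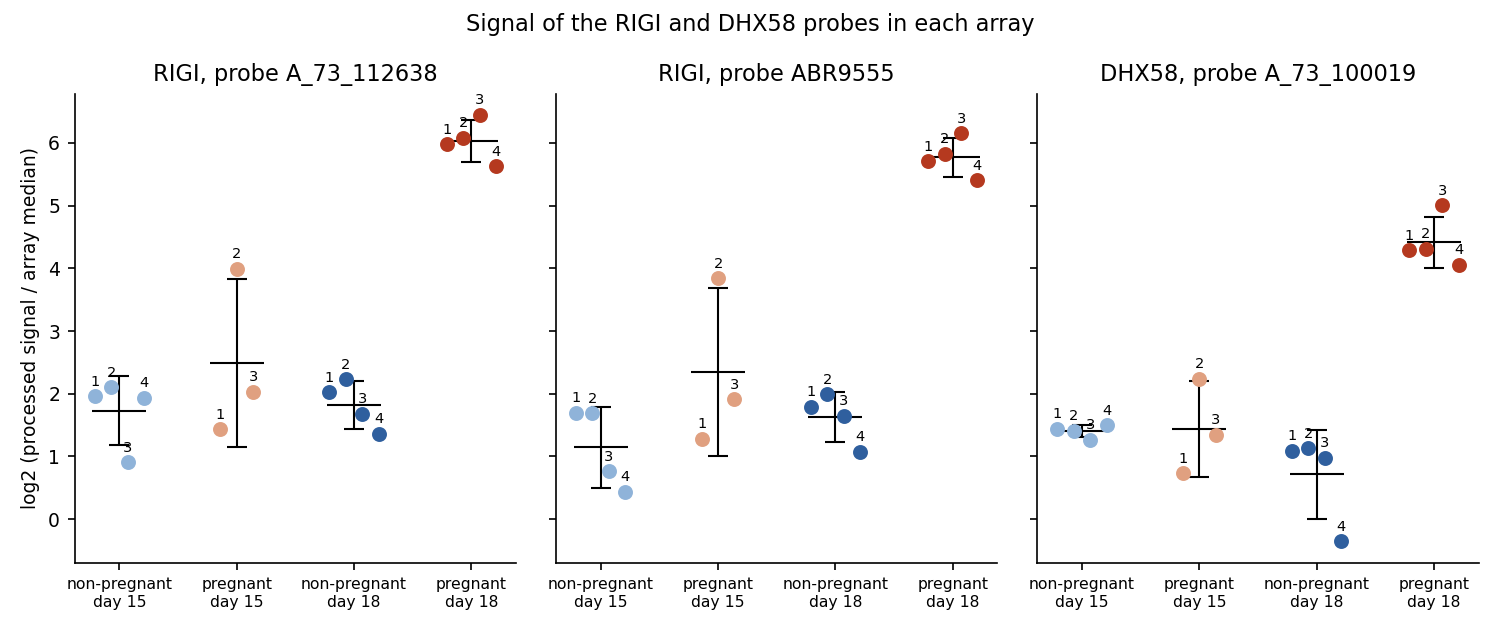
Each point is 1 array, numbered by its replicate, with log2 of the processed signal over the array median on the vertical axis and the 4 groups on the horizontal axis, and the bars are the mean and SD of the log2 values (n = 4, 3, 4 and 4). The 4 P18 arrays lie above all others for each probe, P15 replicate 2 lies apart from its 2 mates, and NP18 replicate 4 is the lowest for DHX58.

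On day 15, neither gene passed the test between pregnant and non-pregnant cows. In signal over the array median, 1 of the 3 pregnant arrays stood above the other arrays of that day for both genes. Its 2 mates lay near or among the non-pregnant arrays. The array median was 315 to 409 in NP15 and 545 to 686 in P15, so the division makes ratios of P15 over NP15 smaller. Undivided, A_73_112638 was from 592 to 1592 in NP15 and from 1855 to 8686 in P15. ABR9555 was from 514 to 1329 and from 1667 to 7813, and DHX58 from 760 to 1112 and from 1139 to 2570. Of all 13164 probes, 0.798% were called on this day in either direction, and 0 of the 3 member probes were. At an unadjusted p below 0.05 limma gave 1 of the 3 probes (ABR9555) and 1956 of all 13164, and the methods' plain test gave 0 of the 3 and 1681 of all.

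RIGI (A_73_112638) had a signal of 3.89, 4.30, 1.88 and 3.83 in NP15 replicates 1 to 4 and of 2.70, 15.9 and 4.09 in P15 replicates 1 to 3. Replicate 2 of P15 was the only pregnant array above all the non-pregnant arrays. The log2 fold change was 0.76 with an SE of 0.48 and an interval from -0.28 to 1.79 (limma, adjusted p = 0.487; exact permutation p = 0.371). Without replicate 2 of P15, it was 0.01.

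With ABR9555, the signal was 3.25, 3.22, 1.70 and 1.35 in NP15 and 2.43, 14.3 and 3.77 in P15. With this probe, 2 of the 3 pregnant arrays were above all the non-pregnant arrays. This gave a log2 fold change of 1.20 with an SE of 0.50 and an interval from 0.14 to 2.26 (limma, adjusted p = 0.276; exact permutation p = 0.2). Without replicate 2 of P15, it was 0.45.

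DHX58 was at 2.72, 2.66, 2.41 and 2.83 in NP15 and at 1.66, 4.72 and 2.54 in P15. The non-pregnant arrays were tightly grouped, and the pregnant arrays lay on both sides of them. Their log2 difference was 0.03 with an SE of 0.39 and an interval from -0.80 to 0.87 (limma, adjusted p = 0.981; exact permutation p = 0.886). Without replicate 2 of P15, it was -0.37.

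The difference between pregnant and non-pregnant cows was larger on day 18 than on day 15 for both genes. This interaction was 3.67 on the log2 scale for DHX58 (SE 0.53; limma, adjusted p = 0.00921), which ranked 6th by p among all probes. For RIGI, it was 3.45 with A_73_112638 (SE 0.66; limma, adjusted p = 0.0166) and 2.95 with ABR9555 (SE 0.68; limma, adjusted p = 0.0345). All 3 were called, against 2.07% of all probes called in this direction.

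By design, the interaction uses the arrays of both days, whereas the estimate of the day 18 difference uses none of day 15. The interaction calls of RIGI depended on single arrays. Without P15 replicate 1, that of A_73_112638 was 2.92 (adjusted p = 0.0564), and without P15 replicate 2 it was 4.2. That of ABR9555 was 2.41 (adjusted p = 0.106) and 3.69 without the same arrays, and its call was also lost without NP15 replicate 1 or 2, P15 replicate 3, NP18 replicate 3 or 4, or P18 replicate 1, 2 or 3, with values from 2.73 to 2.97. That of DHX58 was called without any 1 array, from 3.31 to 4.07. When scan days entered as random blocks, all 3 interaction calls were lost (adjusted p = 0.597, 0.698 and 0.514 for A_73_112638, ABR9555 and DHX58). Over all alternatives the adjusted p was from 0.00404 to 0.597, from 0.00729 to 0.698 and from 0.00141 to 0.514, respectively. For ABR9555, the call was also lost with the slide as a random block (adjusted p = 0.0594) and with 3 other scalings (adjusted p = 0.0503 to 0.0557).

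**Figure D2:**
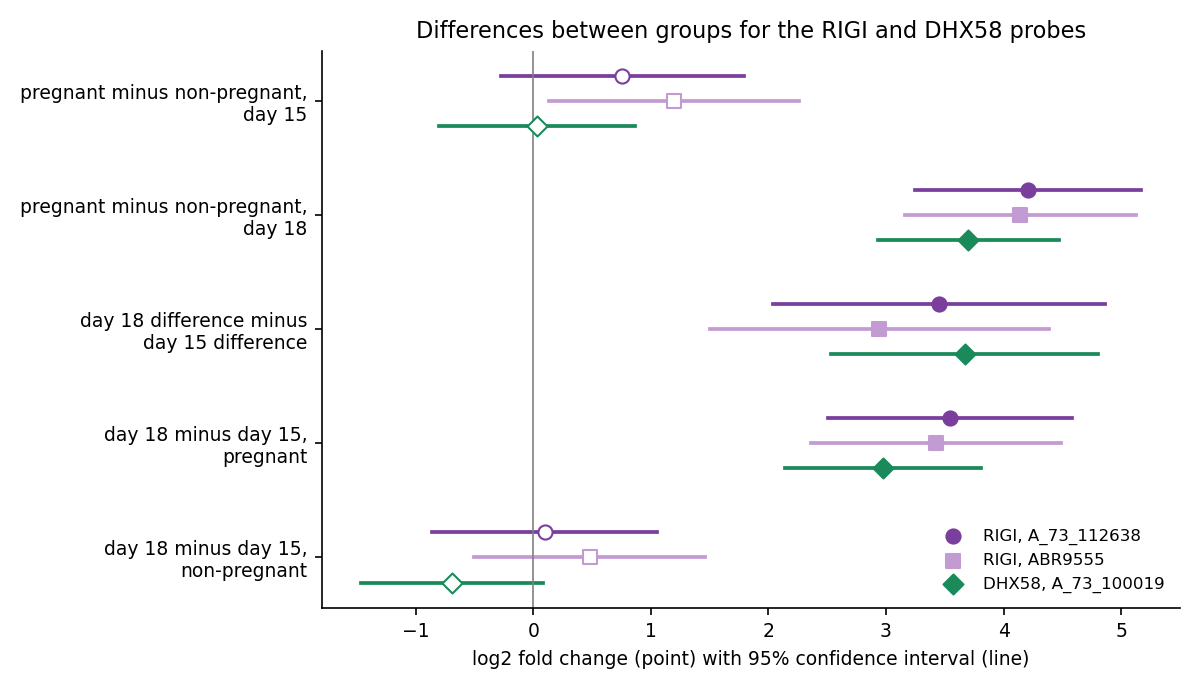
Points are log2 fold changes with 95% confidence intervals as lines, by comparison and probe, and filled points were called. The day 18 differences, the interactions and the rises from day 15 to day 18 in pregnant cows are filled, between 2.95 and 4.21, and the day 15 differences and those between days in non-pregnant cows are open.

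Between days 15 and 18, both genes rose in pregnant cows and neither was called in non-pregnant cows. In pregnant cows, RIGI rose 11.7-fold with A_73_112638 (log2 fold change 3.55, SE 0.48; limma, adjusted p = 0.000859) and 10.7-fold with ABR9555 (3.42, SE 0.50; adjusted p = 0.00116). DHX58 rose 7.87-fold (2.98, SE 0.39; limma, adjusted p = 0.0007). The groups did not overlap for any of the 3 probes (exact permutation p = 0.0286, the smallest that 3 arrays against 4 allow), and 7.58% of all probes were called higher in this comparison. The share of all probes without overlap is not given here, and 4286 of all 13164 had an unadjusted limma p below 0.05. Without P15 replicate 2, the log2 fold change was 4.30 for A_73_112638 and 4.17 for ABR9555. The 3 calls were lost when scan days entered as random blocks (adjusted p = 0.0981, 0.109 and 0.0955), where the lowest adjusted p over the other alternatives was 1.52e-05, 1.81e-05 and 6.55e-06.

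In non-pregnant cows, the log2 change of RIGI from day 15 to day 18 was 0.10 with A_73_112638 (SE 0.45; limma, adjusted p = 0.913) and 0.48 with ABR9555 (SE 0.46; limma, adjusted p = 0.523), and the groups overlapped. For DHX58, it was -0.69 (SE 0.36; limma, adjusted p = 0.219). All 4 NP18 arrays of DHX58 were below all 4 NP15 arrays in signal over the array median (exact permutation p = 0.0286, the smallest possible). This order depends on the division, since the array median was 315 to 409 in NP15 and 790 to 838 in NP18. Undivided, DHX58 was from 760 to 1112 in NP15, and at 1711, 1737, 1653 and 634 in NP18 replicates 1 to 4. The share of all probes separated in this way is not given here. Without NP18 replicate 4, the value was -0.34 (adjusted p = 0.555). Of all probes, 7.16% were called in either direction between these groups, and 0 of the 3 member probes were. At an unadjusted p below 0.05, limma gave 0 of the 3 as well, beside 3851 of all 13164 probes.

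For RIGI, the groups ranked, from the lowest mean log2 signal, NP15, NP18, P15 and P18 with both probes. Neighbors in this order up to P15 did not differ beyond their spread (exact permutation p = 0.743 and 0.486 for A_73_112638, and 0.229 and 0.371 for ABR9555). For DHX58, the order was NP18, NP15, P15 and P18. Here NP18 and NP15 did not overlap in signal over the array median (exact permutation p = 0.0286) but were not called by limma, as given above. NP15 and P15 overlapped (exact permutation p = 0.886). P18 was apart from the next group, P15, for all 3 probes (exact permutation p = 0.0286). The share of all probes apart in this way is not given here, and 4286 of all 13164 had an unadjusted limma p below 0.05 between these 2 groups.

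In 3 of the 4 groups, the arrays ranked alike with all 3 probes. In P15, the order was replicates 2, 3 and 1, in NP18 it was replicates 2, 1, 3 and 4, and in P18 it was replicates 3, 2, 1 and 4. In NP15, the order differed with each probe. The highest array of P15 was 5.89 times the lowest with A_73_112638, 5.90 times with ABR9555 and 2.84 times with DHX58. In P18, these ratios were 1.76, 1.68 and 1.93. For RIGI, P15 was thus the most spread group and P18 the least.

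Within an array, ABR9555 lay below A_73_112638 by a log2 difference of 0.03 to 0.42 in 14 of the arrays, and by 1.5 in replicate 4 of NP15, so the 2 probes parted mainly in that array. The difference DHX58 minus RIGI (A_73_112638), on the log2 scale, had a mean of -0.32 ± 0.47 in NP15 (SD, n = 4), -1.05 ± 0.61 in P15 (SD, n = 3), -1.11 ± 0.43 in NP18 and -1.62 ± 0.14 in P18 (SD, n = 4 each). Its shift between P18 and NP18 was -0.51 (exact permutation p = 0.114), so the difference in size between the rises of RIGI and DHX58 on day 18 was within the spread of the arrays. Between NP18 and NP15, the shift was -0.79 with A_73_112638 and -1.17 with ABR9555 (exact permutation p = 0.0286 for both, the smallest possible). These differences within arrays were chosen after the values were seen, and of the 12 shifts computed, 3 reached the smallest p, which does not pass a Benjamini-Hochberg adjustment over the 12.

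Trophoblast markers varied widely among the P18 arrays. Of 19 trophoblast markers, 15 had a probe. In P18 replicates 2, 3 and 4, their summed signal was 142, 85.5 and 643 times the array median, and 10, 8 and 11 of the 15 were well above background. In P18 replicate 1, the sum was 1.41, with 2 markers above background, and IFNT2, an interferon tau gene, was not above background. This sum was within the range of NP18, which was 1.38 to 2.75. In that array, RIGI was at 63.0 and DHX58 at 19.6, in the middle of the P18 arrays. TKDP4, a trophoblast Kunitz domain protein gene, was above background in that array at 0.271 and in no NP18 array, and in P18 replicates 2, 3 and 4 it was at 66.6, 45.0 and 307. The NP18 sums were made up mostly of ELF5 and TFAP2C, with means of 0.682 and 0.968. P18 replicate 4 had the highest sum and the lowest RIGI and DHX58 of P18. In P15, where replicate 2 was high for both genes, the sums were 0.616, 1.16 and 1.1, and IFNT2 was above background in no array.

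**Figure D3:**
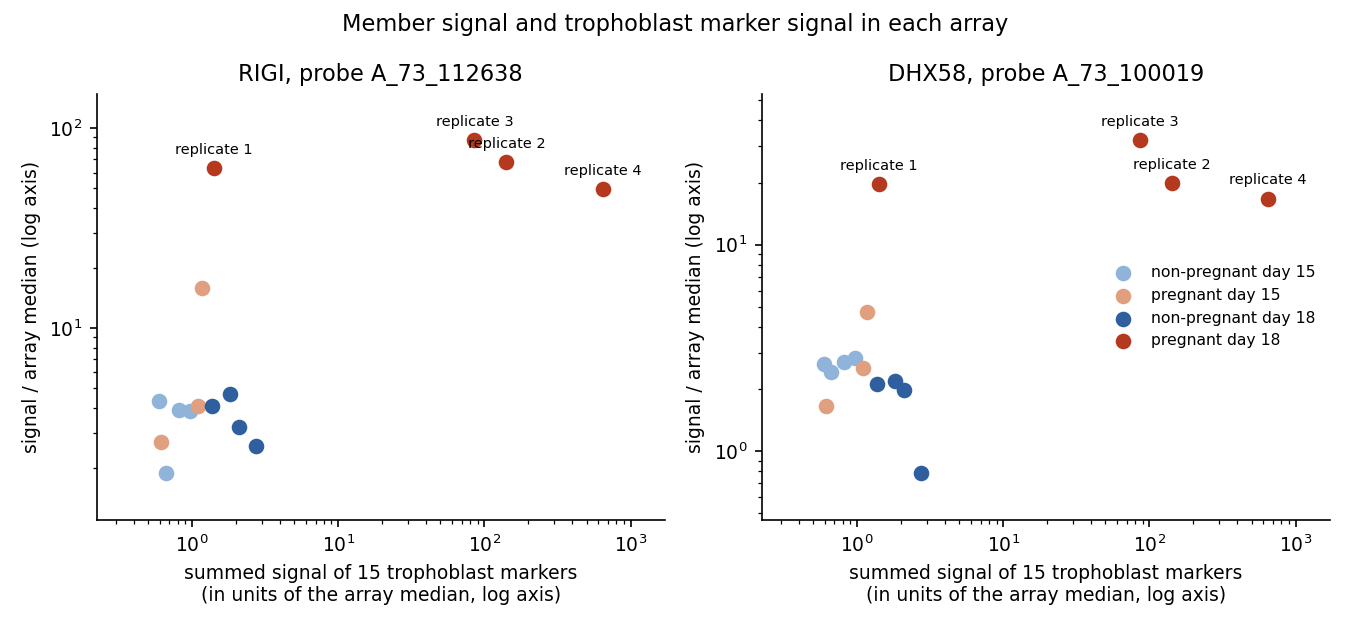
Each point is 1 array, with the summed signal of the 15 trophoblast markers on the horizontal axis and the signal of RIGI or DHX58 over the array median on the vertical axis, both on log axes. P18 replicate 1 has a marker sum of 1.41, within the NP18 range of 1.38 to 2.75 and above the NP15 arrays, and a RIGI signal of 63.0 and a DHX58 signal of 19.6, between those of its P18 mates.

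Leukocyte markers, of which 19 of 26 had a probe, summed to 8.73 to 13.7 in NP18 and 11.8 to 19.7 in P18, and these ranges overlapped. Of the 16 tested, limma called 0 on day 18, with 6 at an unadjusted p below 0.05, beside 3177 of all 13164 probes. The log2 fold change was positive for 13 of these 16, with a median of 0.52. Over all 13164 probes, 7334 were positive and the median was 0.07. PTPRC, which marks all leukocytes, had a weak signal, with means of 0.0435 in NP18 and 0.0268 in P18. It was above background in 1 NP18 array and no P18 array. The summed endometrial markers were from 659 to 958 in NP18 and from 735 to 841 in P18, with 3 of 12 called lower. Smooth muscle markers summed to 95.5 to 414 in NP18 and 54.4 to 137 in P18, with 2 of 4 called lower. The part of these cell types in the RIGI and DHX58 differences was not tested.

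IFIH1, the gene of the remaining sensor MDA5, rose on day 18 as well. Its probe was named from the description alone. The signal was 0.863, 0.850, 0.782 and 0.283 in NP18 and 33.4, 45.9, 14.9 and 25.3 in P18. Its day 18 change was 5.44 on the log2 scale (SE 0.72; limma, adjusted p = 0.000389). On day 15 the signal was 1.66, 0.413, 4.12 and 0.738 in NP15 and 3.68, 5.65 and 0.718 in P15, the groups overlapped, and the difference was 1.03 (SE 0.78; limma, adjusted p = 0.567). Replicate 3 of P15 was the lowest for IFIH1, while replicate 1 was the lowest for RIGI and DHX58.

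The pathway list held 60 genes, of which 41 had a probe and 40 were tested. On day 18, 6 were called higher and 0 lower in pregnant cows, namely the 3 sensors and 3 regulators. Without RIGI and DHX58, this was 4 of 38, beside the 3.65% of all probes called higher. The median log2 fold change of the 38 genes was 0.13, against 0.07 over all probes tested.

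Among 16 regulators tested, the 3 called were ISG15, CYLD and TRIM21. ISG15, a ubiquitin-like protein that is joined to RIG-I and other targets, rose from 12.2 ± 4.30 to 641 ± 174 times the array median (log2 fold change 5.74, SE 0.51; limma, adjusted p = 2.71e-05). TRIM21, a ubiquitin ligase, had a log2 fold change of 1.48 (SE 0.26; limma, adjusted p = 0.00441). CYLD, which removes ubiquitin chains from RIG-I and kinases of the pathway, had one of 1.05 (SE 0.20; limma, adjusted p = 0.0067).

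Adaptors, kinases and transcription factors carry the signal onward from the sensors. Of 9 adaptors, 8 kinases and 4 genes of the transcription factor group, limma called 0 on day 18, with 3, 0 and 2 at an unadjusted p below 0.05. Over all 13164 probes tested, 757 were called in either direction and 3177 had such a p, so these counts lay near the background. MAVS had a log2 fold change of 0.78 (SE 0.30; limma, adjusted p = 0.133), and its signal was weak, at 0.114 ± 0.0317 in NP18 and 0.204 ± 0.101 in P18 times the array median (n = 4 each), and well above background in 2 NP18 and 3 P18 arrays. TBK1, at 5.54 ± 0.659 and 6.06 ± 1.48, had one of 0.11 (SE 0.21; limma, adjusted p = 0.803). IKBKE, which encodes IKKε, had one of -0.21 (SE 0.31; limma, adjusted p = 0.73). IRF3 had a log2 fold change of 0.91 (SE 0.26; limma, adjusted p = 0.0459), which passed the adjusted p but not the limit of 2-fold.

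On day 15, limma called 0 of the 40 pathway genes, with 6 at an unadjusted p below 0.05, and the methods' t-test called 0. Of all probes, 0.798% were called and 1956 of 13164 had an unadjusted p below 0.05, a share like that of the pathway. ISG15 was at 10.6 ± 3.26 in NP15 and 46.8 ± 48.9 in P15 (limma, adjusted p = 0.188), and P15 replicate 2 was at 103 against 12.6 and 25 in its mates, so that the array that was high for RIGI and DHX58 was also high for ISG15. For the interaction, 5 pathway genes were called, namely the 3 sensors, ISG15 and TRIM21, beside 2.07% of all probes called higher. Without P15 replicate 1, the pathway count was 2. Between days, 6 were called higher in pregnant cows, beside 7.58% of all probes. In non-pregnant cows, 1 was called higher (YWHAE, 1.33) and 2 lower (IRF3, -1.16, and USP15, -1.17, all log2). This was near the 7.16% of all probes called in either direction between those groups.

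**Figure D4:**
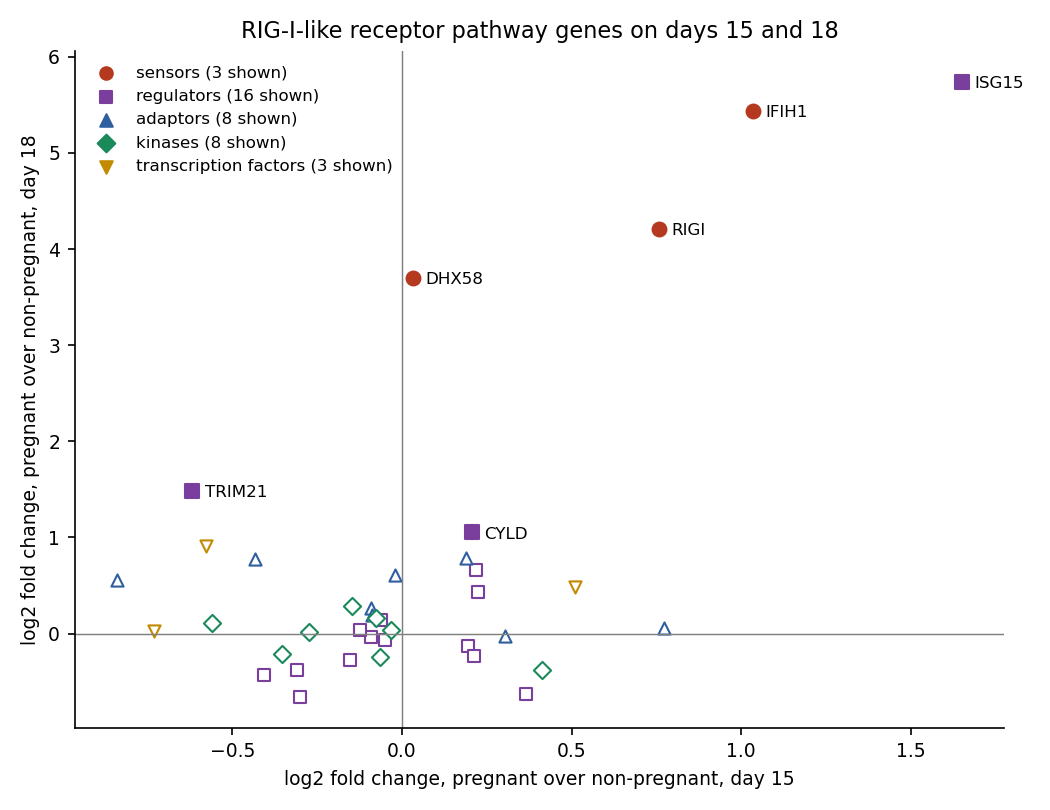
Each point is a gene of the pathway, with its log2 change with pregnancy on day 15 on the horizontal axis and on day 18 on the vertical axis, and filled points were called on day 18. Of the 40 genes tested, 38 are shown, since STING1 and NFKB1 were well above background in no array of day 18, and the 3 sensors and ISG15 lie at 3.70 or above.

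Of 15 other nucleic acid sensors tested, 7 were called higher and 0 lower on day 18, beside the 3.65% of all probes called higher. The largest log2 fold changes were those of OAS2 (6.19, SE 0.60), IFIT3 (5.22, SE 0.41) and OAS1X (4.97, SE 0.57), and IFIT5 (2.86, SE 0.24), EIF2AK2 (2.26, SE 0.29) and TLR3 (1.63, SE 0.37) were smaller. OAS proteins make a second messenger that activates RNase L, and some IFIT proteins bind the ends of foreign RNA. EIF2AK2 encodes the RNA-activated kinase PKR, and TLR3 senses double-stranded RNA in endosomes. HMGB1, which had the brightest probe of this list, had a change of -0.16 (limma, adjusted p = 0.779). TLR7, which senses single-stranded RNA in endosomes, was not well above background in NP18 and was at least 1.92-fold higher in P18 (limma, adjusted p = 0.00362).

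Of the genes through which type I interferon acts on its targets, IRF9, the DNA-binding part of the factor ISGF3, was called higher on day 18, with a log2 fold change of 3.17 (SE 0.29; limma, adjusted p = 2.75e-05). IFNAR2 had one of -0.25 (SE 0.23; limma, adjusted p = 0.538). IFNAR1 was called lower, but it was not well above background in P18 and was above it in 2 of 4 NP18 arrays, and the bound on its fold is at least 1.04-fold.

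Among the other members of the DExD/H-box helicase family, which act in splicing, translation and ribosome assembly as well as in sensing, a call on day 18 was seen in 1 gene. Apart from RIGI and DHX58, 21 family genes had a probe and 19 were tested. Of these, IFIH1 alone was called on day 18 (3 at an unadjusted p below 0.05). Over all 13164 probes tested, 757 were called in either direction on day 18 and 3177 had such a p. The family counts were thus near or below this background. The median log2 fold change of the 19 was 0.03. DDX3X, which is known to bind MAVS, had one of 0.66 (SE 0.24; limma, adjusted p = 0.113), and DHX9, which also binds viral RNA, had one of -0.01 (SE 0.23; limma, adjusted p = 0.982). DDX5, which had the brightest probe of the family, had one of 0.64 (limma, adjusted p = 0.16). Between days in pregnant cows, IFIH1 and DDX39A were called higher and DHX57 lower. In non-pregnant cows, DDX1 and DHX9 were called higher and DHX35 lower. DHX35 was weak, with means of 0.0894 in NP15 and 0.0377 in NP18, and was well above background in no NP18 array. Over all 13164 probes, 1566 were called in either direction between days in pregnant cows and 942 in non-pregnant cows.

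**Figure D5:**
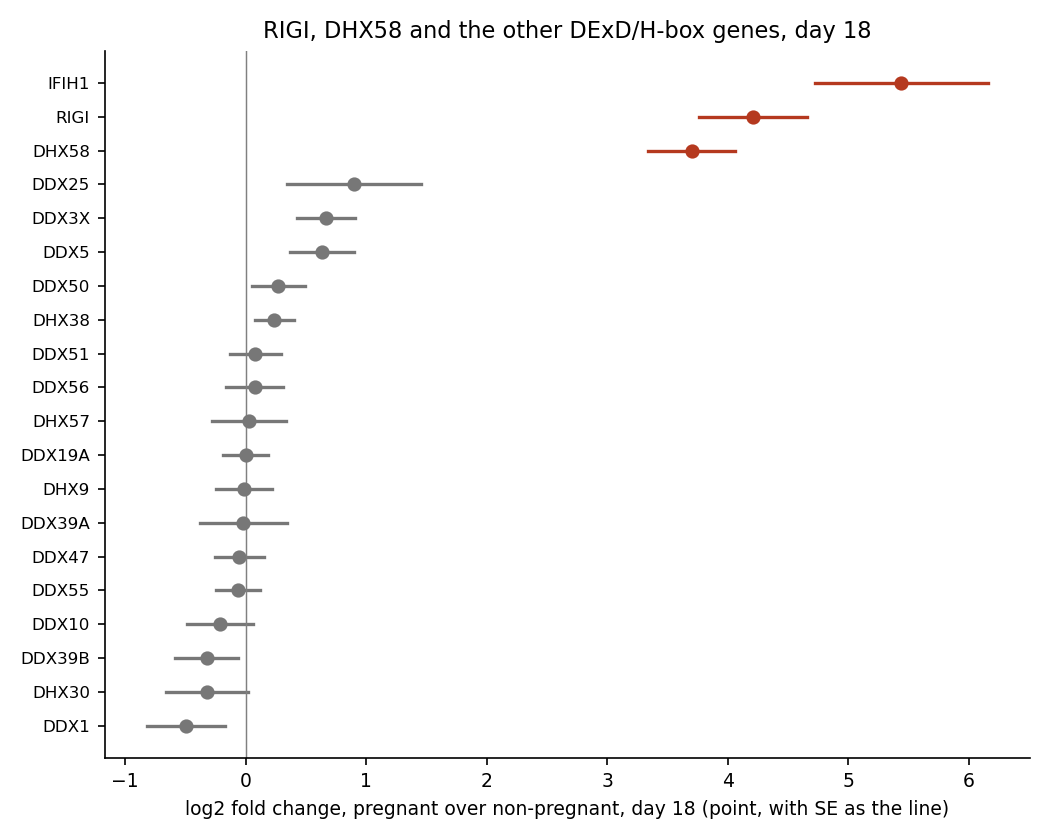
Points are log2 changes with pregnancy on day 18, with the SE as a line, for RIGI (A_73_112638), DHX58 and the 18 other family genes that were well above background in at least 1 array of day 18. IFIH1, RIGI and DHX58, drawn in red, were called and lie at 5.44, 4.21 and 3.70, and the others lie between -0.50 and 0.90.

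The genes whose pattern over the 15 arrays was most like that of each member were found from the root mean square difference of log2 signals, each centered on its own mean. For RIGI (A_73_112638), the nearest 5 named probes were MX1 (0.33), the other RIGI probe (0.33), IFIT3 (0.53), RTP4 (0.55) and XAF1 (0.58), against a median of 1.95 over 13129 probes. For DHX58, they were SP110 (0.33), XAF1 (0.37), IRF9 (0.41), MX1 (0.45) and PML (0.46), against a median of 1.6. DHX58 was 12th of all probes by likeness to RIGI, at 0.60, and by likeness to DHX58 the RIGI probe A_73_112638 was 15th, at 0.60, and ABR9555 was 38th, at 0.74. MX1 and XAF1 were in both lists. These distances describe 15 arrays that share groups and scan days, and they carry no test.

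In the bovine assembly ARS-UCD2.0, RIGI is on chromosome 8 and DHX58 on chromosome 19. Of the 3 nearest named genes on each side, which were looked up after the values were seen, NDUFB6 and C9orf72 near RIGI and NKIRAS2 near DHX58 had a tested probe. Their log2 fold changes on day 18 were 0.34, 0.52 and 0.13 (limma, adjusted p = 0.373, 0.136 and 0.698), so none of these neighbors was called.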

How the data were processed

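Gene expression was measured with 1 one-color Agilent array per sample in 15 samples of 4 groups. For the deposited scanner tables, the authors' Feature Extraction 9.5 had removed the background and detrended each array, and the intensity of a spot is on a linear scale, unscaled between arrays. A second deposited table holds log2 values by the authors, each equal to the log2 intensity minus a constant per array close to that of its 75th percentile, and it served as an alternative.

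Each intensity was divided by its array's median over 15208 non-control probes, as in the methods, and log2 was taken. Outlier spots were removed, but not saturated ones. All 13164 probes that passed background in 3 or more arrays were fitted with limma 3.58.1 in R 4.3.3, with 1 mean per group, moderated variances and Benjamini-Hochberg adjustment over all probes. A probe was called at an adjusted p under 0.05 with more than a 2-fold change. Exact two-sided permutation tests used the differences of mean log2 values. The p-values measure the spread between these samples, and 3 or 4 arrays per group limit the precision. Python 3.11.15 with pandas 2.3.3 and matplotlib 3.10.9 served for the rest. The fit was tested on simulated data, where 200 of 13130 probes had a true log2 change. It recovered 81.5% of them for day 15 and 92.0% for day 18 at a change of 2.5, and 55.5 and 59.0% at 1.5. From 4 to 9 unchanged probes were called in a run. The simulated noise was independent between arrays, without effects of slide or scan day, so these rates do not cover such effects.

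Gene names came from the files, updated through the RefSeq table of ARS-UCD2.0, and 7458 probes had a symbol. Of several probes of a gene, the brightest was taken, except for the members. Every member probe is described. Any pathway gene could be named and all called ones were counted. Of the other lists, the called genes and the one with the brightest probe were named, and a few further genes (IFNAR2, DDX3X, DHX9 and the neighbors) were chosen after their values were seen. For each member, the 5 named probes most like it were given. A called gene of these lists is not reported here. A fold bound for a probe not above background in a group was set against the lowest signal well above background in each array. The members and lists were chosen with earlier results of these data known.

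The alternatives were the scaling to the 75th percentile, quantile normalization, normexp with an offset of 50, the authors' log2 table, no filter, a filter on all arrays, array weights, the 2 groups compared alone, the slide or scan day as a random block, the replicate number as a block, the plain test of the methods, adjusted or not, and the omission of each array in turn.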

Additional observations from a re-analysis of the deposited data

Results flagged for a closer look

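In 2 groups, 1 array stood apart. For RIGI (A_73_112638), NP15 replicate 3 was the lowest of its group, and its gap to the nearest array was 0.860 of the group's range on the log2 scale. For DHX58, NP18 replicate 4 was the lowest, with a gap of 0.896 of the range on the same scale. Both are above Dixon's 95% critical value for 4 samples, which chance exceeds in about 1 in 20 groups.

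For all 3 probes, pregnancy had a larger effect on day 18 than on day 15, by 3.45 for RIGI (A_73_112638), 2.95 for RIGI (ABR9555) and 3.67 for DHX58 on the log2 scale. These were not called when scan days entered as random blocks.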

How the results depend on the processing

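The day 18 calls of the 3 probes held under all alternatives run. When scan days entered as random blocks, the calls of the interaction were lost (3.41 for RIGI A_73_112638, 2.87 for ABR9555 and 3.67 for DHX58), as were those of day 18 minus day 15 in pregnant cows (3.55, 3.42 and 2.98). The interaction of ABR9555 also lost its call at 2.77 with the 75th percentile, 2.67 with quantile normalization, 2.77 with the authors' table and 2.93 with slides as random blocks. Without 1 array, the interaction was from 2.92 to 4.2 for A_73_112638 and from 2.41 to 3.69 for ABR9555. Values that were not called changed sign for RIGI A_73_112638 between days in non-pregnant cows, at -0.024 with the 75th percentile and -0.023 with the authors' table, and from -0.18 to 0.25 without 1 array. They did so for DHX58 on day 15, at -0.20 with array weights and -0.12 with the replicate block, and from -0.37 to 0.39 without 1 array. The cause was not tested. In all, 383 of 411 alternative values of the 3 probes kept their direction and their side of the threshold. Many of these could not change in size. The estimate stays the same when an array outside the comparison is omitted, and with the other filters or the plain test. The count is thus not one of independent checks.

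Of the pathway genes, scan-day blocks left 3 called in place of 6 on day 18, 0 in place of 5 for the interaction and 0 in place of 6 between days in pregnant cows. With normexp, 10 were called for the interaction, and without 1 array from 2 to 7. Between days in non-pregnant cows, 1 was called in place of 3 with the groups compared alone, with scan-day blocks and with the methods' test after adjustment. Over all probes, the alternatives gave 0 to 788 calls on day 15 (105 in the report), 49 to 1373 on day 18 (757), 0 to 1329 for the interaction (358), 0 to 3080 between days in pregnant cows (1566) and 54 to 1744 in non-pregnant cows (942), with the lowest counts under scan-day blocks. The share of calls that were higher depended on the scaling. It was 43.8% on day 15 and 62.4% with the 75th percentile, 63.5% on day 18 and 49.1% with quantile normalization, 76.0% for the interaction and 57.1% with the 75th percentile, 63.7% between days in pregnant cows and 31.2% with the 75th percentile, and 40.4% in non-pregnant cows and 25.6% with the 75th percentile. The 75th percentile moved the median of all probes between days in pregnant cows from 0.12 to -0.18.

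The replicate block changed no call of the 3 probes (day 18, adjusted p = 0.000198, 0.000185 and 0.00018). Same-numbered arrays of the groups of 1 day correlated, in their deviations from the group means, by -0.13 to 0.30, so the numbers were not taken as pairs. All 3 probes were far above background in every array.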
